A study of Homo sapiens with 8 samples.

Results

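The genes described here encode NF-κB transcription factor subunits, inhibitors and feedback enzymes of the pathway, and the surface proteins ICAM1 and TNFRSF12A. They are 10 of the 60230 genes in the deposited table, chosen by symbol: NFKB1, NFKB2, RELA, RELB, NFKBIA, NFKBIE, TNFAIP3, BIRC3, ICAM1, and TNFRSF12A. All 10 passed the filter on low counts, which left 13404 genes. The choice used no measured value of a sample, but it was made with earlier results of these data known. All cells were HepG2, an established human hepatocellular carcinoma line, in a derivative that overexpresses the drug-metabolizing enzyme cytochrome P450 3A4 (CYP3A4) and was grown with blasticidin. The 4 groups were DMSO (0.2%), compound 4 (labelled metylcresol), compound 5 (tetrabut), and compound 6 (cyclohexil), with 2 replicates each and 8 samples in all, after an exposure of 24 h. The labels call the replicates day 1 and day 2, whereas the methods state a single exposure time. Nothing in the labels says that replicates came from separate cultures, so the p-values measure the spread between these samples, which may be technical. Each compound was given at its own IC50, so the doses were not matched. The compounds are phenolic antioxidants with a pair of rings. Compounds 4 and 6 share a methylene bridge and differ in the ring substituent, tert-butyl in compound 4 and cyclohexyl in compound 6. Compound 5 has a methyl group on the bridge and a pair of tert-butyl groups on each ring.

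NF-κB proteins are dimers of Rel-family subunits. In resting cells, IκB proteins hold the dimers in the cytoplasm. Cytokine receptors and stress signals activate the IκB kinase complex, the IκB proteins are degraded, and the dimers enter the nucleus. There they induce genes for chemokines, adhesion molecules, and survival proteins, together with IκB genes and TNFAIP3, whose products shut the signal off again. A second branch runs through the kinase NIK (MAP3K14), which leads to processing of the NFKB2 product p100 and to nuclear RELB dimers. In hepatocytes the pathway is best known for acute-phase and survival responses to inflammatory cytokines.

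NF-κB dimers recognise a decameric DNA element, the κB site, and promoters of several of these genes are textbook examples of it. RefSeq start sites on GRCh38.p14 gave windows for 7 of the 10 genes, 11 windows in all, while RELB, NFKBIE, and TNFRSF12A had no entry. The 250 bases before the start site were searched on both strands for the κB consensus GGGRNWYYCC. Here R is A or G, N any base, W A or T, and Y C or T. A match was found in 5 of these 7 genes, NFKB1, NFKB2, NFKBIA, TNFAIP3, and BIRC3, whereas the windows of RELA and ICAM1 held none. Counted by window, 6 of the 11 held a match, and of all 35116 windows of this length 5.21% did. The following windows are shown because they carry the matches of genes that changed (NFKB2 and BIRC3) and of genes that did not pass the test against DMSO (NFKB1, NFKBIA, and TNFAIP3), with the window of ICAM1 beside them as one that holds no match. Capitals mark the bases of consensus matches on either strand, and sequences read 5′ to 3′ on the strand of the gene. A match is a description of the letters and no evidence of binding, and no match says only that these letters are not in this window. The ICAM1 window holds TGGAAATTCC, which differs from the consensus in its first base only. Its lack of a match therefore depends on how strictly the consensus is set. The windows lie at chr4:102501109-102501358 (+ strand) for NFKB1, chr10:102394328-102394577 (+ strand) for NFKB2, chr14:35404750-35404999 (- strand) for NFKBIA, chr6:137867009-137867258 (+ strand) for TNFAIP3, chr11:102317234-102317483 (+ strand) for BIRC3, and chr19:10270870-10271119 (+ strand) for ICAM1.
NFKB1: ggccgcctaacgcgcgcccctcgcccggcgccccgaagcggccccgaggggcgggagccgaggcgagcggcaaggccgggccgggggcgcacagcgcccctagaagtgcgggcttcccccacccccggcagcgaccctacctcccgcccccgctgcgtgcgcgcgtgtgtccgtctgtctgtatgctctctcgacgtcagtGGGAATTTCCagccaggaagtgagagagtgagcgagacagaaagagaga
NFKB2: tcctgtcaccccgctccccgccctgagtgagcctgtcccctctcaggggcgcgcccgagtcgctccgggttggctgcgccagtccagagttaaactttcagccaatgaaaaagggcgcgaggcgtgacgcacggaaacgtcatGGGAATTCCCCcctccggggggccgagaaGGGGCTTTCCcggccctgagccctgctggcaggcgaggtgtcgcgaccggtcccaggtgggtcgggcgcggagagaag
NFKBIA: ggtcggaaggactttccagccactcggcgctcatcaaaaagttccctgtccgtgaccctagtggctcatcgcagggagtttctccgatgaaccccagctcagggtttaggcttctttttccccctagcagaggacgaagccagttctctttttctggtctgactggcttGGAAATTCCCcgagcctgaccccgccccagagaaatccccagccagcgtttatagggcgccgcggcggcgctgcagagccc
TNFAIP3: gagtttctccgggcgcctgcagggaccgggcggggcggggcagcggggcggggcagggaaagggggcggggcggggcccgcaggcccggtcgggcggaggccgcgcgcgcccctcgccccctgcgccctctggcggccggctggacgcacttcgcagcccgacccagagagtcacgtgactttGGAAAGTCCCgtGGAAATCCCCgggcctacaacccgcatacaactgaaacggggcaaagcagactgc
BIRC3: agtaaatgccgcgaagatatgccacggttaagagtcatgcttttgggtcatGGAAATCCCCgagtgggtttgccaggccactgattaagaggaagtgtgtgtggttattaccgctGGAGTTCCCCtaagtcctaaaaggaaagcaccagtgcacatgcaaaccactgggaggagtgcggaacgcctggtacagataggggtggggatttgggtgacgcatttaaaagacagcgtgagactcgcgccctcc
ICAM1: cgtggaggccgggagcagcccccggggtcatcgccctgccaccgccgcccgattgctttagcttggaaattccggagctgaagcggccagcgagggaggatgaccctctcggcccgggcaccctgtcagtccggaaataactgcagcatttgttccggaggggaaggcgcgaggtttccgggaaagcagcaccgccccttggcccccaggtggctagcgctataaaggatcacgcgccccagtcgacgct

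NFKB1 is described by 2 windows. In the one shown the match GGGAATTTCC lay from 49 to 40 bases before the start site, and the other held no match. NFKB2 is described by 3 windows, of which another one, not shown, also held matches, and the one shown had overlapping matches on both strands from 107 to 97 bases before the start site and GGGGCTTTCC from 78 to 69 bases before it. In NFKBIA a single match lay on the opposite strand, from 81 to 72 bases before the start site. TNFAIP3 had a pair of neighbouring matches on the opposite strand, GGGACTTTCC from 67 to 58 bases and GGGGATTTCC from 55 to 46 bases before the start site. BIRC3 carried GGGGATTTCC from 199 to 190 bases and GGGGAACTCC from 135 to 126 bases before the start site, both on the opposite strand.

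Values below are TMM-scaled CPM, that is, counts set to a common total over the tested genes and scaled by the TMM factor of the sample. They compare samples for 1 gene, not genes with each other. Changes are edgeR log2 fold changes with their standard error (SE), and a call means a Benjamini-Hochberg adjusted p under 0.05 over all 13404 genes. The counts summed to between 9472261 and 13308975 per sample, and 3 counts corresponded to between 0.234 and 0.313 CPM, counting error only. All 11 hepatocyte markers were detected in every sample, and their summed level was 40730 and 42750 CPM with DMSO and between 32540 and 39370 CPM in treated samples. Of these markers, APOA1 and TF were called lower with all 3 compounds and AFP with compounds 4 and 5, while APOA2 and TTR were called higher with compound 4. The leukocyte and macrophage list held 7 of 10 genes at 0 counts in every sample, PTPRC among them. Its other genes, LYZ, CD68, and CD14, summed to between 1890 and 3031 CPM. CD68 and CD14 were called higher with compound 4, CD14 also with compound 6, and LYZ lower with compound 5, with CD14 at no more than 1.25 CPM and CD68 between 27.2 and 57.7 CPM. The fibroblast and stellate list summed to between 11.1 and 22.7 CPM with COL1A2, DCN, and LUM at 0 throughout, PDGFRB called higher with compound 4 and ACTA2 lower with compound 5, and the endothelial list to between 0.864 and 2.4 CPM. CYP3A4 was at 198 and 207 CPM in the DMSO samples, 287 and 216 under compound 4, 371 and 421 under compound 5, and 170.5 in both samples of compound 6. Mitochondrially encoded transcripts took between 4.91% and 5.12% of counts with DMSO and between 5.31% and 6.22% in treated samples. The part of these differences in the results below was not tested. In bulk RNA, fewer cells of a kind and less RNA per cell cannot be told apart.

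Of the 10 genes, 4 passed the test in the comparison of compound 4, 6 in that of compound 5, and 2 in that of compound 6, all against the same 2 DMSO samples. Each of these counts was lower in some fits that left out 1 sample. The surface proteins ICAM1 and TNFRSF12A rose with all 3 compounds, RELB rose with compounds 4 and 5, NFKB2 and RELA rose with compound 5, and BIRC3 fell with compounds 4 and 5. The IκB genes NFKBIA and NFKBIE, the feedback enzyme TNFAIP3, and NFKB1 were not called against DMSO with any compound. As background for these counts, compound 4 had 11.9% of all tested genes called, compound 5 had 28.1%, and compound 6 had 4.4%. The median log2 fold change of the 10 genes was 0.11, 0.30, and 0.19 with compounds 4, 5, and 6, where the median of all tested genes was 9.88e-05, -0.03, and 0.00283. All 6 treated samples lay above both DMSO samples for NFKB2, RELB, ICAM1, and TNFRSF12A, which 12.3% of all tested genes also did, and below both for BIRC3, as did 14.3% of all tested genes. The plot of the 10 genes by sample shows these positions.

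**Figure D1:**
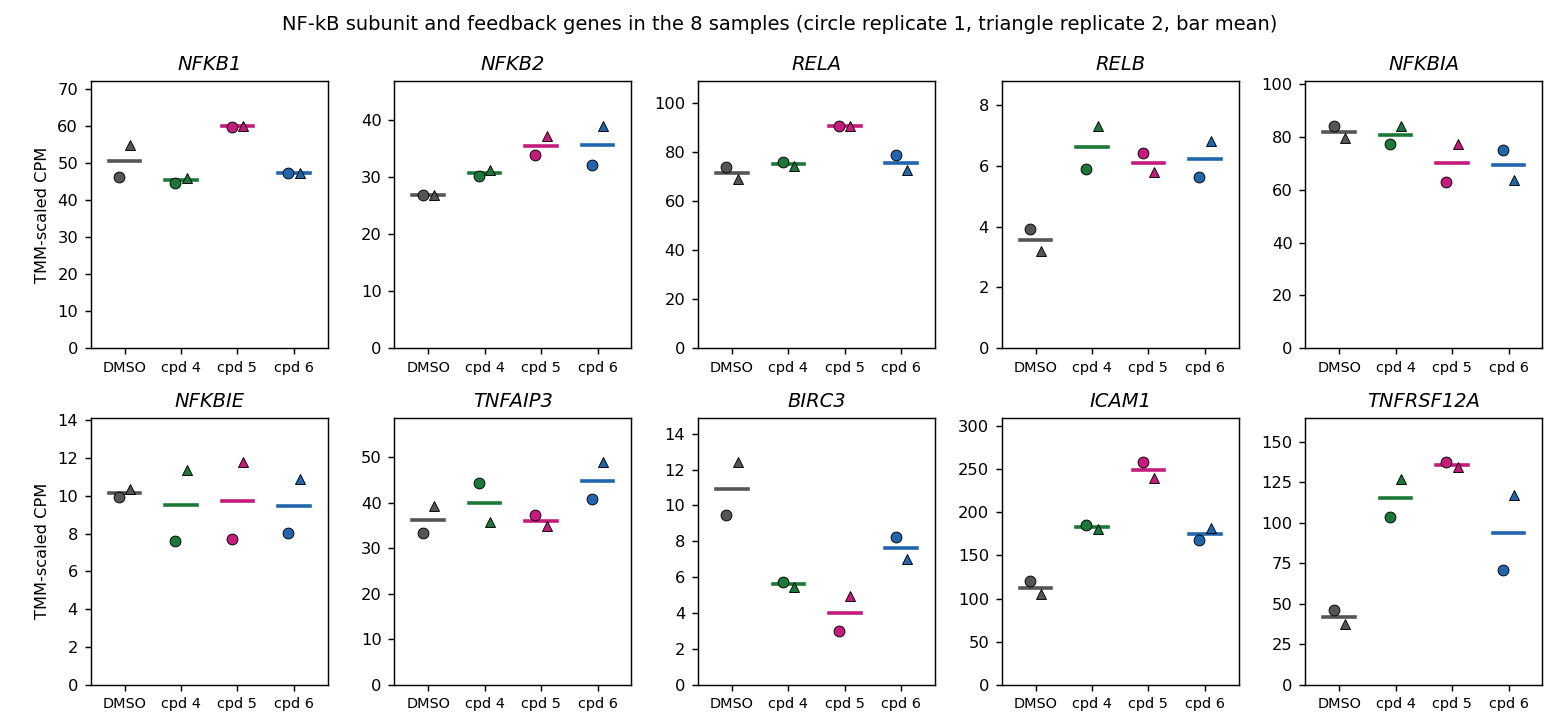
Level of each of the 10 genes in TMM-scaled CPM (linear axes from 0) in the 8 samples. Circles are replicate 1, triangles replicate 2, and bars the mean of each group of 2. ICAM1 and TNFRSF12A stand above both DMSO samples in all 6 treated samples, BIRC3 stands below, and NFKBIE overlaps between groups.

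TNFRSF12A, the receptor for the cytokine TWEAK, showed the largest rise of the 10 genes with each compound. It lies at chromosome 16, 3018445 to 3022383 (GRCh38, + strand; gene positions are those of GENCODE 29). The levels were 45.9 and 37.8 CPM in the DMSO samples, 104 and 127 under compound 4, 137 and 135 under compound 5, and 70.9 and 117 under compound 6. The samples of compound 6 were the most widely spread, and replicate 2 alone reached the range of compound 4. Relative to DMSO, the log2 fold change was 1.47 with compound 4 (SE 0.21, adjusted p = 0.00186), 1.70 with compound 5 (SE 0.21, adjusted p = 0.000383), and 1.17 with compound 6 (SE 0.21, adjusted p = 0.0144). These correspond to folds of 2.76, 3.25, and 2.25. The calls with compounds 4 and 5 held without any single sample. The call with compound 6 was lost without replicate 1 of DMSO (log2 fold change 1.32, adjusted p = 0.0713), without replicate 2 of DMSO (1.04, adjusted p = 0.159), and without replicate 2 of compound 6 (0.77, adjusted p = 0.114). The ligand gene TNFSF12, which encodes TWEAK, was at between 1.45 and 2.57 CPM in the 8 samples and was not called with any compound. It shares 27.9% of its 31-base stretches with a readthrough gene, so its counts are uncertain.

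ICAM1, the adhesion molecule that binds leukocyte integrins, rose with every compound. The gene lies at chromosome 19, 10270835 to 10286615 (+ strand). It was at 120.1 and 105 CPM in the DMSO samples, 186 and 181 under compound 4, 258 and 240.2 under compound 5, and 168 and 182 under compound 6. All treated samples stood above both DMSO samples, both samples of compound 5 stood above the other treated samples, and compounds 4 and 6 overlapped. On the log2 scale the change was 0.70 with compound 4 (SE 0.11, adjusted p = 0.00256), 1.15 with compound 5 (SE 0.11, adjusted p = 0.000109), and 0.63 with compound 6 (SE 0.11, adjusted p = 0.0121). Significance with compound 5 held without any single sample. The call with compound 4 was lost without replicate 2 of DMSO (0.61, adjusted p = 0.0515). Significance with compound 6 was lost without replicate 1 of DMSO (0.73, adjusted p = 0.0541), without replicate 2 of DMSO (0.54, adjusted p = 0.153), and without replicate 2 of compound 6 (0.58, adjusted p = 0.122).

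The feedback enzymes did not move together. BIRC3 (cIAP2), a ubiquitin ligase at TNF receptors, was at 9.45 and 12.4 CPM in the DMSO samples, 5.73 and 5.46 under compound 4, 3.03 and 4.95 under compound 5, and 8.24 and 7.0 under compound 6. No 2 groups overlapped, and the order ran from DMSO through compounds 6 and 4 down to compound 5. The gene, at chromosome 11, 102317450 to 102339403 (+ strand), fell by 0.97 on the log2 scale with compound 4 (SE 0.24, adjusted p = 0.0242) and by 1.44 with compound 5 (SE 0.25, adjusted p = 0.00221). With compound 6 the log2 fold change was -0.53 (SE 0.23, adjusted p = 0.236), with an interval from -1.05 to -0.02. The call with compound 5 held without any single sample. Significance with compound 4 was lost without replicate 2 of DMSO (-0.76, adjusted p = 0.227), without replicate 1 of compound 4 (-1.01, adjusted p = 0.0504), and without replicate 2 of compound 4 (-0.92, adjusted p = 0.0798). Its paralog BIRC2 was at between 66.8 and 86.6 CPM and was not called with any compound.

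TNFAIP3 (A20), the ubiquitin-editing enzyme that ends the signal at the receptor complex, lies at chromosome 6, 137867188 to 137883312 (+ strand). It was at 33.3 and 39.4 CPM in the DMSO samples, 44.3 and 35.7 under compound 4, 37.3 and 34.9 under compound 5, and 40.8 and 48.9 under compound 6. Only both samples of compound 6 stood above both DMSO samples. The log2 fold change was 0.14 with compound 4 (95% interval -0.19 to 0.46), -0.01 with compound 5 (-0.34 to 0.31), and 0.30 with compound 6 (-0.02 to 0.63), with adjusted p = 0.6, 0.96, and 0.285.

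Among the subunits, RELB, the partner of processed NFKB2, had the largest change. It lies at chromosome 19, 45001430 to 45038198 (+ strand). It was at 3.94 and 3.21 CPM in the DMSO samples, 5.9 and 7.33 under compound 4, 6.42 and 5.81 under compound 5, and 5.63 and 6.84 under compound 6. All 6 treated samples stood above both DMSO samples and overlapped with each other. Relative to DMSO, the log2 fold change was 0.90 with compound 4 (SE 0.23, adjusted p = 0.0296), 0.78 with compound 5 (SE 0.23, adjusted p = 0.0301), and 0.82 with compound 6 (SE 0.23, adjusted p = 0.0758). DESeq2 did not call RELB with compound 4 (adjusted p = 0.0886) or compound 5 (0.0918), and edgeR fitted to only the 2 groups compared did not call it with compound 4 (0.0549), whereas edgeR without a filter on low counts called it with compound 6 (0.024). The call with compound 4 was lost without replicate 1 (adjusted p = 0.0808) or replicate 2 of DMSO (0.229), and without replicate 2 of compound 4 (0.139). Significance with compound 5 was lost without replicate 1 (0.0724) or 2 of DMSO (0.159), and without replicate 1 (0.125) or 2 of compound 5 (0.0774).

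NFKB2, which encodes the precursor p100, lies at chromosome 10, 102394110 to 102402529 (+ strand). Both DMSO samples were at 26.8 CPM, the samples of compound 4 at 30.2 and 31.3, those of compound 5 at 33.8 and 37.1, and those of compound 6 at 32.1 and 39.0. All treated samples stood above DMSO, and replicate 2 was above replicate 1 in the 3 treated groups. On the log2 scale the change was 0.41 with compound 5 (SE 0.13, adjusted p = 0.0386), 0.41 with compound 6 (SE 0.13, adjusted p = 0.101), and 0.20 with compound 4 (SE 0.13, adjusted p = 0.365). Without replicate 1 of compound 6, NFKB2 was called with that compound (0.57, adjusted p = 0.0385). RELA, the main activating subunit, lies at chromosome 11, 65653596 to 65663094 (- strand). It was at 73.7 and 68.9 CPM in the DMSO samples, 76.0 and 74.1 under compound 4, 90.4 and 90.8 under compound 5, and 78.7 and 72.6 under compound 6. Compound 5 stood above all other samples, with a log2 fold change of 0.35 against DMSO (SE 0.10, adjusted p = 0.0275). RELA showed 0.07 with compound 4 (95% interval -0.15 to 0.30) and 0.08 with compound 6 (-0.14 to 0.31).

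The calls of NFKB2 and RELA with compound 5 depended on the scaling. Library size alone shifted the median log2 fold change of all genes by -0.10 for this comparison, and the values were then 0.30 for NFKB2 (adjusted p = 0.0983) and 0.24 for RELA (adjusted p = 0.0921). With upper-quartile scaling NFKB2 was at 0.32 (adjusted p = 0.0825) and RELA at 0.26 (adjusted p = 0.0827). DESeq2 gave NFKB2 an adjusted p of 0.0607. For NFKB2 the adjusted p was 0.152 and 0.123 without replicate 1 or 2 of DMSO, and 0.0789 and 0.198 without replicate 1 or 2 of compound 5. For RELA these values were 0.0886, 0.139, 0.1, and 0.123. Of all genes called with compound 5, 49.3% were higher with TMM scaling, 36.6% with upper-quartile scaling, 33.3% with library size alone, 53.1% with RLE scaling, and 56.8% with DESeq2.

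NFKB1, which encodes the precursor p105, lies at chromosome 4, 102501329 to 102617302 (+ strand). It was at 46.2 and 54.9 CPM in the DMSO samples, 44.7 and 45.9 under compound 4, 59.9 and 60.1 under compound 5, and 47.3 in both samples of compound 6. Relative to DMSO, the change was -0.16 on the log2 scale with compound 4 (95% interval -0.41 to 0.09), 0.25 with compound 5 (-0.00112 to 0.49), and -0.10 with compound 6 (-0.35 to 0.15). DMSO replicate 2 was the highest sample outside compound 5, and none of these changes was called (adjusted p = 0.403, 0.122, and 0.689).

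The inhibitor genes showed no called change. NFKBIA (IκBα), at chromosome 14, 35401511 to 35404749 (- strand), was at 84.4 and 79.5 CPM in the DMSO samples, 77.4 and 84.0 under compound 4, 63.1 and 77.3 under compound 5, and 75.2 and 63.8 under compound 6. The samples of compounds 5 and 6 stood below both DMSO samples, and compound 4 overlapped with DMSO. The log2 fold change was -0.02 (95% interval -0.30 to 0.26), -0.22 (-0.51 to 0.06), and -0.24 (-0.52 to 0.05) with compounds 4, 5, and 6. NFKBIE (IκBε), at chromosome 6, 44258166 to 44265788 (- strand), was at 9.94 and 10.4 CPM in the DMSO samples, 7.61 and 11.4 under compound 4, 7.7 and 11.8 under compound 5, and 8.03 and 10.9 under compound 6. Replicate 2 was higher than replicate 1 in all 4 groups, by 1.04 times with DMSO and between 1.35 and 1.53 times with the compounds. The log2 fold changes of NFKBIE were -0.09, -0.05, and -0.09, and the widest interval ran from -0.66 to 0.47. At this spread a change of NFKBIE within these bounds was not detectable.

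**Figure D2:**
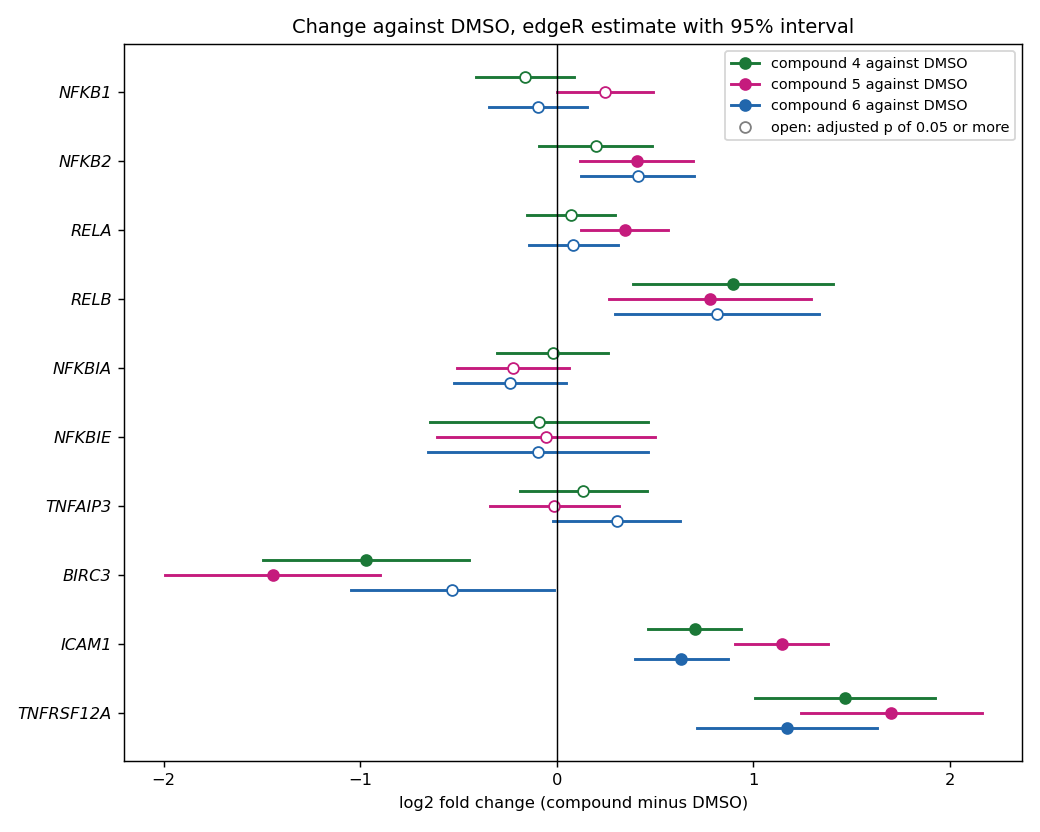
Log2 fold change of each gene against DMSO (horizontal axis) for compounds 4, 5, and 6, as edgeR estimate with its 95% interval, 2 samples per group. Filled points have an adjusted p under 0.05. The intervals of ICAM1 and TNFRSF12A lie above 0 with all 3 compounds, and those of NFKBIE span 0.

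Differences between treatments were tested directly in 3 pairs, with the doses unmatched as stated above. Compound 5 stood above compound 4 for ICAM1 (log2 fold change 0.44, SE 0.11, adjusted p = 0.0242) and NFKB1 (0.41, SE 0.11, adjusted p = 0.0396). These 2 calls compare with 13.9% of all tested genes. NFKB1 was not called with upper-quartile scaling (adjusted p = 0.0655), with library size alone (0.0709), or when only the 2 groups compared were fitted (0.0608). Against compound 6, compound 5 was higher for ICAM1 (0.51, SE 0.11, adjusted p = 0.0157) and lower for BIRC3 (-0.91, SE 0.26, adjusted p = 0.0484), where 9.91% of all tested genes were called. With the replicate number as a block, BIRC3 had an adjusted p of 0.055 and 1 gene remained called. BIRC3 was also not called with DESeq2 (adjusted p = 0.0814), with RLE scaling (0.0518), or when only the 2 groups compared were fitted (0.0524). ICAM1 thus differed between compound 5 and both others, but structure and dose differ together in these pairs and cannot be told apart.

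Leaving out 1 sample ended each of these direct calls in some fits. NFKB1 between compounds 5 and 4 was lost without replicate 1 of DMSO (adjusted p = 0.0512), replicate 1 (0.0636) or 2 of compound 4 (0.0919), and replicate 1 (0.15) or 2 of compound 5 (0.163). ICAM1 between compounds 5 and 4 was lost without replicate 2 of compound 4 (0.0728) and replicate 1 (0.143) or 2 of compound 5 (0.0929). ICAM1 between compounds 5 and 6 was lost without replicate 1 (0.125) or 2 of compound 5 (0.0699) and replicate 1 of compound 6 (0.113). BIRC3 between compounds 5 and 6 was lost in every fit that left out a sample of DMSO, compound 5, or compound 6, with adjusted p between 0.0576 and 0.261.

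TNFRSF12A differed by 0.53 between compounds 5 and 6 (95% interval 0.09 to 0.97, adjusted p = 0.117). DESeq2 called this difference (0.55, adjusted p = 0.0464), and so did edgeR without a filter (adjusted p = 0.000875) and without replicate 2 of compound 6 (0.95, adjusted p = 0.0135). Between compounds 5 and 4 it differed by 0.24 (95% interval -0.20 to 0.67). RELA was 0.27 higher with compound 5 than with compound 4 (95% interval 0.05 to 0.49, adjusted p = 0.0941) and 0.26 higher than with compound 6 (0.04 to 0.48, adjusted p = 0.125), without a call.

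Between compounds 4 and 6, which differ in tert-butyl against cyclohexyl, 0 of the 10 genes were called by edgeR. DESeq2 also called 0, and 0 genes had an unadjusted p under 0.05. Of all tested genes, 0.0448% were called. The intervals still allow differences, from -0.16 to 0.30 for ICAM1, from -0.15 to 0.73 for TNFRSF12A, from -0.98 to 0.10 for BIRC3, and from -0.40 to 0.56 for RELB on the log2 scale.

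**Figure D3:**
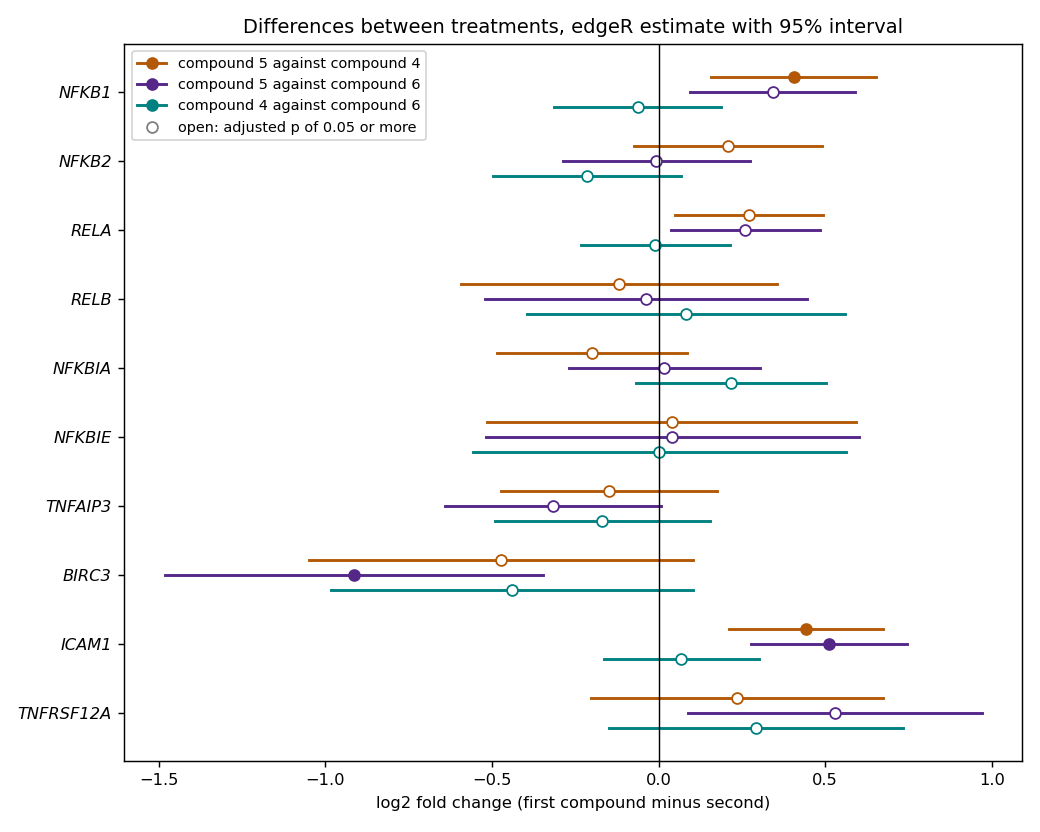
Log2 fold change of each gene between treatments (horizontal axis, first compound minus second) as edgeR estimate with its 95% interval, 2 samples per group. Filled points have an adjusted p under 0.05: NFKB1 and ICAM1 for compound 5 against 4, and ICAM1 and BIRC3 for compound 5 against 6.

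The other genes of the pathway formed a list of 65, of which 52 were tested. With compound 4, 7 rose and 0 fell, with compound 5, 13 rose and 2 fell, and with compound 6, 3 rose and 0 fell, which is 13.5%, 28.8%, and 5.77% of the tested members, where 11.9%, 28.1%, and 4.4% of all tested genes were called. Their median log2 fold change was 0.09, 0.19, and 0.12, beside 9.88e-05, -0.03, and 0.00283 for all tested genes. Without replicate 1 of DMSO these counts were 1, 7, and 0, and without replicate 2 of DMSO 0, 9, and 0. With compound 4, 3 genes were called without its replicate 2 or without either sample of compound 5. With compound 5, 9 and 8 were called without its replicate 1 or 2. With compound 6, 5 were called without either sample of compound 4, 1 without replicate 1 of compound 5, 8 without replicate 1 of compound 6, and 0 without its replicate 2.

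The receptors LTBR, for lymphotoxin, and TNFRSF1A, for TNF, rose with all 3 compounds. LTBR was at 66.9 and 58.1 CPM in the DMSO samples, 102 and 105 under compound 4, 110.5 and 114 under compound 5, and 83.5 and 97.0 under compound 6. All treated samples of LTBR stood above DMSO. The change of LTBR was 0.73 with compound 4 (adjusted p = 0.00326), 0.85 with compound 5 (adjusted p = 0.000679), and 0.53 with compound 6 (adjusted p = 0.0316). TNFRSF1A changed by 0.65 with compound 4 (adjusted p = 0.00794), 0.52 with compound 5 (adjusted p = 0.0115), and 0.59 with compound 6 (adjusted p = 0.0286). IRAK2, a kinase of the interleukin-1 receptor, rose by 0.51 with compound 4 (adjusted p = 0.0384) and 0.65 with compound 5 (adjusted p = 0.00674).

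With compound 5 the death receptor TNFRSF10A rose by 0.94 (adjusted p = 0.000676) and TRIB3, a stress-induced pseudokinase, by 1.69 (adjusted p = 0.000291), while TRIB3 rose by 0.86 with compound 6 (adjusted p = 0.0342). IKBKG, the scaffold subunit of the IκB kinase complex, rose by 0.86 (adjusted p = 0.000794), and by 0.46 with compound 4 (adjusted p = 0.0353), but 27.9% of its 31-base stretches are shared with the pseudogene IKBKGP1 and its counts are uncertain. COMMD1, which promotes RELA turnover, fell by 0.54 (adjusted p = 0.0287), with 34.8% of its stretches shared. IL1RAP, the interleukin-1 receptor accessory protein, fell by 0.51 (adjusted p = 0.021). Most of the ligand genes of the pathway did not pass the filter on low counts. TNF had counts in 1 of 8 samples (0.0985 CPM), LTA, IL1A, and CD40LG in none, and the highest level of LTB was 0.171 CPM, all at or under the level of 3 counts.

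The list of 41 further NF-κB target genes, of which 20 were tested, held called genes in both directions. With compound 4, 6 rose and 0 fell, with compound 5, 9 rose and 4 fell, and with compound 6, 4 rose and 1 fell. These were 30%, 65%, and 25% of the tested genes, against 11.9%, 28.1%, and 4.4% of all tested genes. The median log2 fold change of the list was 0.15, 0.33, and 0.21, and that of all tested genes 9.88e-05, -0.03, and 0.00283. Leaving out replicate 1 of DMSO gave 6 called genes with compound 5 and 0 with compound 6, and leaving out replicate 2 of DMSO gave 8 and 0. With compound 5, 8 were called without its replicate 2. With compound 6, 3 were called without replicate 1 of compound 5, 9 without replicate 1 of compound 6, and 0 without its replicate 2. This list was written with earlier results of these data known and is no independent support. CCL20, a chemokine for lymphocytes and dendritic cells, rose with each compound, from 143 and 119 CPM in the DMSO samples to 347 and 389 under compound 4, 752 and 701 under compound 5, and 194.5 and 258 under compound 6. CSF1, the macrophage growth factor, was at 4.23 and 3.12 CPM in the DMSO samples, 14.6 and 14.5 under compound 4, 11.5 and 12.9 under compound 5, and 6.78 and 11.9 under compound 6. IER3, a survival-associated early response gene, was at 93.1 and 86.6 CPM in the DMSO samples, 174 and 188 under compound 4, 379.5 and 400.3 under compound 5, and 139 and 188 under compound 6. All treated samples of these 3 genes stood above both DMSO samples.

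The change of CSF1 was 1.99 with compound 4 (adjusted p = 0.00147), 1.74 with compound 5 (adjusted p = 0.00114), and 1.37 with compound 6 (adjusted p = 0.0223). CCL20 changed by 1.49 (adjusted p = 0.000373), 2.47 (adjusted p = 2.76e-05), and 0.79 (adjusted p = 0.0168) with compounds 4, 5, and 6. IER3 changed by 1.01 with compound 4 (adjusted p = 0.0017), 2.12 with compound 5 (adjusted p = 2.76e-05), and 0.86 with compound 6 (adjusted p = 0.01). GADD45B, a stress-inducible survival gene, rose by 1.27 with compound 4 (adjusted p = 0.00856) and 1.15 with compound 5 (adjusted p = 0.00679). CXCL8, the neutrophil chemokine interleukin-8, was at 0.394 and 0.575 CPM in the DMSO samples, 1.2 and 0.78 under compound 4, 9.62 and 15.3 under compound 5, and 1.46 and 2.55 under compound 6. Both samples of compound 5 stood above all other samples, with a change of 4.64 against DMSO (SE 0.42, adjusted p = 9.83e-05). The DMSO values lay near the level of 3 counts, so the size of this change is uncertain. With compound 6 CXCL8 changed by 2.03 (SE 0.51, adjusted p = 0.051) and with compound 4 by 0.98 (SE 0.57, adjusted p = 0.115), without a call.

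The target genes that fell were CX3CL1, by 0.60 with compound 5 (adjusted p = 0.00671), IRF1, by 0.49 with compound 5 (adjusted p = 0.0499), and EFNA1, by 0.44 with compound 5 (adjusted p = 0.0199) and by 0.54 with compound 6 (adjusted p = 0.0326). CX3CL1 encodes a membrane-bound chemokine, IRF1 an interferon-responsive transcription factor, and EFNA1 an ephrin ligand. CD83 also fell with compound 5 (adjusted p = 0.0341), at a mean under 1 CPM. It was named after its values were seen.

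**Figure D4:**
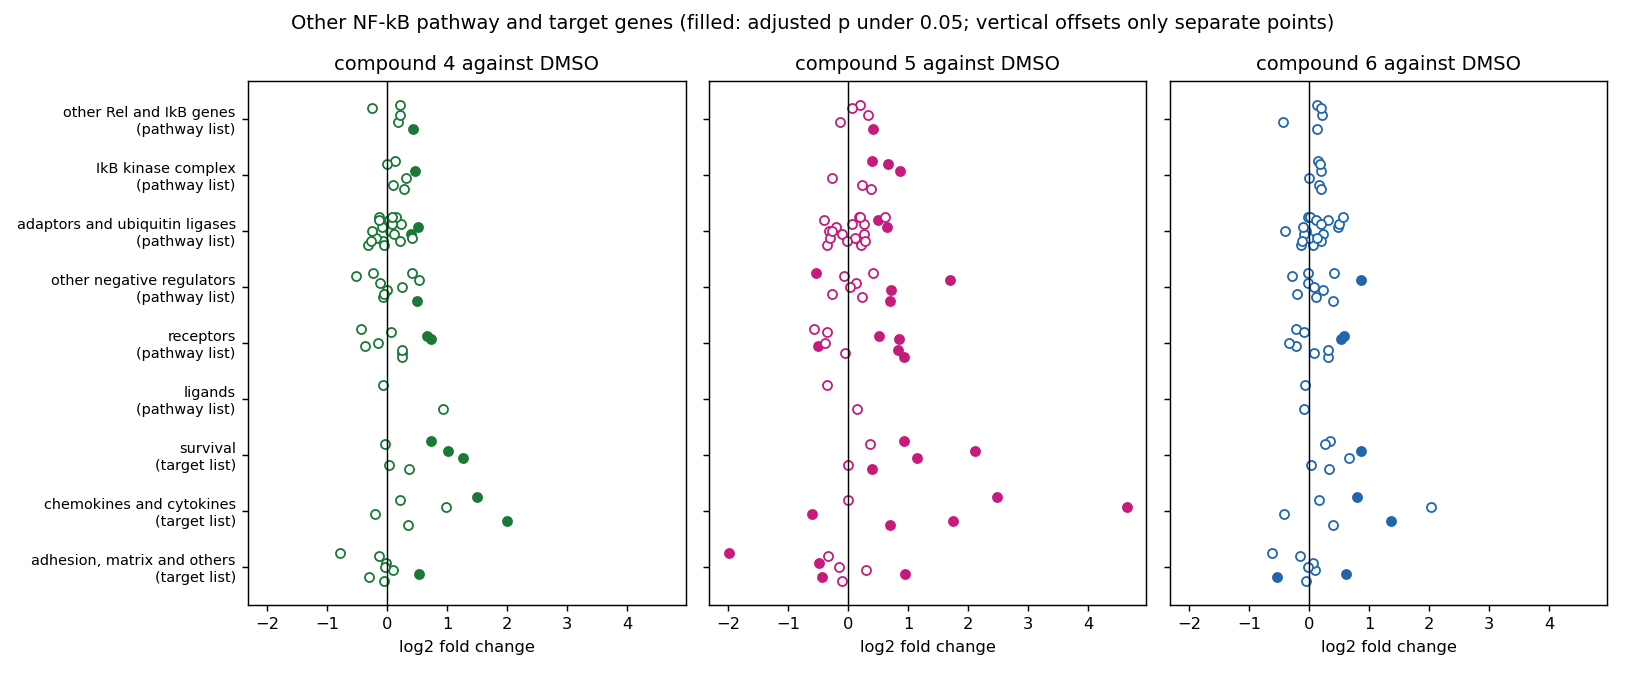
Log2 fold change against DMSO (horizontal axis) of the tested genes of the pathway and target lists by role, one panel per compound. Each point is a gene, filled when its adjusted p was under 0.05. Vertical offsets within a row only separate points. Chemokines and cytokines reach 4.64 (CXCL8) with compound 5.

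The 2 members with the widest range of group means were TNFRSF12A (1.70 on the log2 CPM scale) and BIRC3 (1.44). Among 12692 genes whose mean reached 1 CPM, those nearest to TNFRSF12A over the 8 samples, by the root mean square difference of log2 CPM centred on the DMSO mean, were B3GNT3 (0.17), RBM24 (0.18), and FBLIM1 (0.20). Those nearest to BIRC3 were FAM161A (0.16), SESN1 (0.17), and PRIMPOL (0.18). SESN1 was at 20.4 and 23.0 CPM with DMSO and at 7.15 and 11.0 with compound 5. The genes were selected for their likeness, so no test was made.

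**Figure D5:**
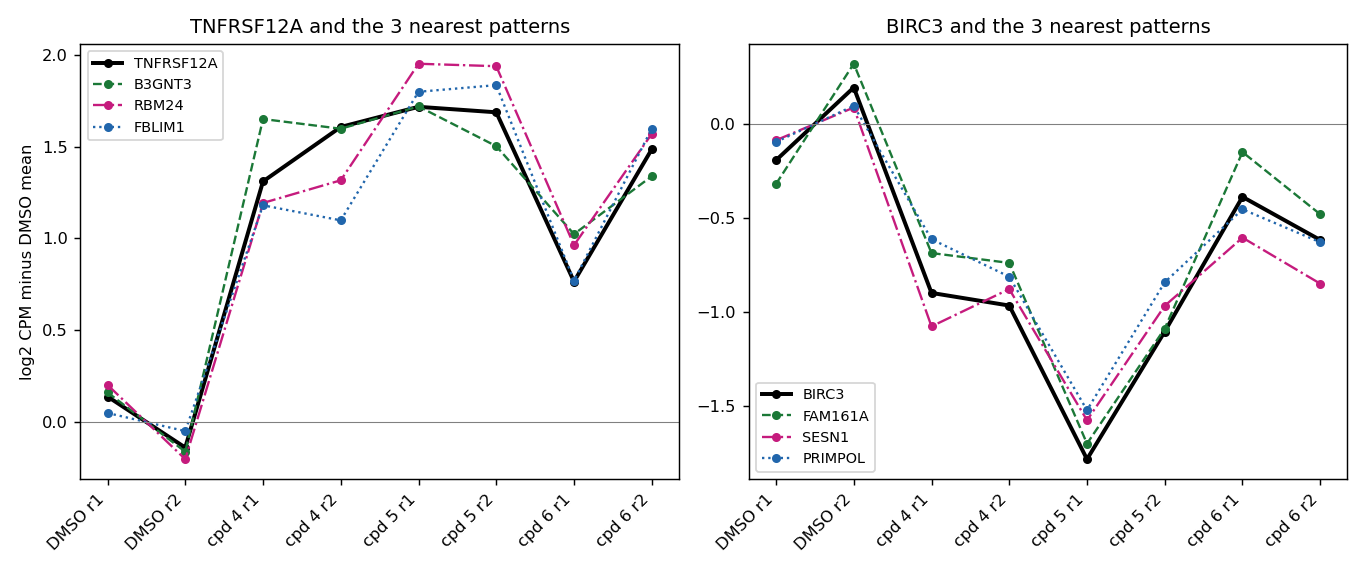
Log2 CPM minus the DMSO mean (vertical axis) over the 8 samples (horizontal axis, by group and replicate) for TNFRSF12A and BIRC3, each with the 3 genes nearest in pattern. Lines join samples only to guide the eye. TNFRSF12A and its neighbours lie above the DMSO mean in all 6 treated samples, and BIRC3 and its neighbours lie below it.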

How the data were processed

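The 8 samples are mRNA libraries, made with a directional kit, of HepG2 cells overexpressing CYP3A4. The labels of replicate 1 of compounds 4 and 5 each read merged with 2 S numbers, and do not say what these numbers stand for. The authors ran Salmon 1.5.0 against GENCODE (GRCh38, per the submitters' processing notes) and summed the transcript estimates per gene using tximeta. What the authors deposited are estimated counts (expected counts as whole numbers, unscaled) of 60230 genes. The authors used DESeq2 1.38.3 for their own tests. The deposited table held no transcript-length offsets.

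The analysis used R 4.3.3, edgeR 4.0.16, and limma 3.58.1, with TMM scaling, filterByExpr, and 1 quasi-likelihood fit of the 4 groups. Calls were made at a Benjamini-Hochberg adjusted p under 0.05 over 13404 genes. SE is the size of the log2 fold change divided by the root of F, and intervals are 95%. An exact permutation test of 2 against 2 samples cannot go below p = 0.333 (two-sided) and was not used. The procedure was tested on counts simulated with the fitted trend of the spread. That test does not show how reliable calls from 2 samples per group are in these data. Alternatives were RLE, upper-quartile, and library-size scaling, DESeq2 1.42.0, keeping any gene with 1 count, keeping genes with 10 counts or more in each sample, adding the replicate number as a block, fitting the 2 compared groups alone, and 8 fits without 1 sample each. Coordinates and 31-base stretches shared between genes came from GENCODE 29 on GRCh38, which is older than the authors' annotation, and promoter windows from RefSeq on GRCh38.p14.

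The 10 genes and all lists were chosen with earlier results of these data known. Named were all 10 genes in every comparison, CYP3A4, the cell type markers, and per compound the 3 highest and 3 lowest changes among called list genes whose mean reached 1 CPM. For the 2 members with the widest range of group means, the 3 genes nearest in pattern were named. BIRC2, CD83, and the ligand genes TNFSF12, TNF, LTA, IL1A, CD40LG, and LTB fall outside this rule and were chosen after their values were seen. SOD2 was not matched by symbol and has no value. The replicate numbers pair the samples only by the day in the labels, and the correlation of the deviations of same-numbered samples lay between -0.083 and 0.16. Replicates of a group differed by more than counting noise (chi-square per degree of freedom between 5.67 and 18.0), and none was treated as a duplicate. Cytotoxicity, docking, cell cycle, and comet data were not analysed here.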

Additional observations from a re-analysis of the deposited data

How the results depend on the processing

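Over the 8 alternative settings, 227 of the log2 fold changes of single genes against DMSO and 216 of those between compounds kept their direction and their side of the threshold. Against DMSO, 8 lost and 1 gained a call and 4 changed sign. Between compounds, 7 lost and 2 gained a call and 15 changed sign. The replicate block changed no call other than that of BIRC3 between compounds 5 and 6 (adjusted p = 0.055). The cause of these changes was not tested.

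The number of the 10 genes called between compounds 5 and 4 was 1 with upper-quartile scaling, library size alone, and only the 2 groups compared. Between compounds 5 and 6 it was 1 with RLE scaling, the replicate block, and only the 2 groups compared. Pathway genes called with compound 6 numbered 5 with DESeq2, 6 without a filter, and 5 with at least 10 counts in every sample, and target genes called with compound 6 numbered 8 without a filter.

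All sign changes in single genes were in values without a call. NFKB2 between compounds 5 and 6 was 0.0155 with RLE scaling, 0.0157 with DESeq2, and 0.0186 without a filter. NFKBIA between compounds 5 and 6 was -0.0639 with upper-quartile scaling and -0.0608 with library size alone. With these 2 settings NFKBIE was -0.0297 and -0.0249 between compounds 5 and 4, and -0.0382 and -0.0356 between compounds 5 and 6. NFKBIE between compounds 4 and 6 was -0.00293 with RLE, -0.00852 with upper-quartile, and -0.0107 with library-size scaling, -0.000684 with DESeq2, -0.000211 without a filter, and -0.0134 with at least 10 counts per sample. TNFAIP3 with compound 5 against DMSO was 0.0101 with RLE scaling, 0.0108 with DESeq2, 0.0159 without a filter, and 0.0113 with only the 2 groups compared.

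Of all genes called between compounds 5 and 4, 49.5% were higher with compound 5, against 31.3% with library size alone and 63.8% with DESeq2. Between compounds 5 and 6 these shares were 48.0%, 28.4%, and 60.6%.

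In the 8 fits without 1 sample each, the genes called against DMSO numbered between 1 and 4 with compound 4, between 3 and 6 with compound 5, and between 0 and 3 with compound 6, and between 0 and 2 for compound 5 against either other compound. Pathway genes called numbered between 0 and 8, between 7 and 18, and between 0 and 8 with compounds 4, 5, and 6, and target genes between 6 and 13 with compound 5 and between 0 and 9 with compound 6. The following uncalled log2 fold changes also took both signs. Against DMSO, NFKB1 with compound 6 lay between -0.215 and 0.0363, NFKBIA with compound 4 between -0.0669 and 0.0368, TNFAIP3 with compound 4 between -0.0266 and 0.298 and with compound 5 between -0.127 and 0.14, and NFKBIE between -0.401 and 0.165, between -0.399 and 0.24, and between -0.33 and 0.125 with compounds 4, 5, and 6. For compound 5 against 4, RELB lay between -0.264 and 0.0592, NFKBIE between -0.307 and 0.375, and TNFAIP3 between -0.286 and 0.0133. For compound 5 against 6, NFKB2 lay between -0.139 and 0.161, RELB between -0.165 and 0.133, NFKBIA between -0.139 and 0.165, and NFKBIE between -0.304 and 0.316. For compound 4 against 6, RELA lay between -0.0697 and 0.0294, RELB between -0.0896 and 0.234, NFKBIE between -0.327 and 0.258, ICAM1 between -0.00666 and 0.127, and TNFRSF12A between -0.0391 and 0.701. A lone sample in a group was assumed to vary like the other groups. Each group had 2 samples, and NFKBIE had the widest interval of the 10 genes against DMSO with each compound.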
